A study of Homo sapiens with 6 samples.

Results

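The genes described here encode 7 enzymes that link glutamate with proline and ornithine: ALDH18A1, PYCR1, PYCR3, ALDH4A1, OAT, ARG2 and GLUD1. They were taken by symbol from the authors' deposited table of 25287 genes, which holds all 7. Total RNA was sequenced from NCI-H1299, an established human lung cancer line that lacks p53, in 6 libraries. In 3 of them the cells carried a short hairpin RNA against ALDH18A1 (shALDH18A1), and in the other 3 a control hairpin (shControl), for which the series text gives puro. All cells grew in the same RPMI1640 medium with fetal bovine serum, per the labels. The labels leave out the hairpin sequence, the time after its delivery and whether the 3 libraries come from different cultures, so the spread behind the p-values may be technical.

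Glutamate enters proline synthesis through P5CS, the mitochondrial protein of ALDH18A1, which makes pyrroline-5-carboxylate. That intermediate has several fates. The PYCR reductases turn it into proline, the dehydrogenase ALDH4A1 returns it to glutamate, and the aminotransferase OAT exchanges it with ornithine, which arginase also makes from arginine. Proline is needed in quantity for collagen, and tumour cells in culture often make it themselves. MYC and ATF4 are known to induce several genes of this route in other cancer cells.

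For each gene the authors' deposited table gives a mean normalized count over the libraries, a log2 fold change between the groups and its standard error (SE). Per-library values were not analysed here. No depth, no range within a group and no overlap between groups can therefore be given. The headers do not name the numerator of the fold change, and the targeted gene did not pass the threshold. A value above 0 is therefore called positive and a value below 0 negative, with no hairpin assigned to either. The numerator and denominator levels given below were rebuilt from the mean count and the fold change of the authors' deposited table, with groups of equal size assumed, and have no error of their own.

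Of the 7 genes, 4 were positive and 2 negative at an adjusted p under 0.05 in the authors' deposited table, and 1 did not pass. The share that passed was 42.4% of all genes and 77.6% of the 9509 genes whose mean count reached 250, so it was higher among genes of higher count. By direction, 20.9% of all genes were positive and 21.5% negative, and 34.1% and 43.5% of those whose mean count reached 250. All 7 have a mean count above 250, but ARG2 reaches it only through its numerator group and PYCR3 lies under it in the denominator group, so nothing is read from 6 of 7 beside 77.6%. A column of calls in the authors' deposited table marks every gene with an unadjusted p under 0.05 as up or down (47.1% of all genes, 23.5% up and 23.6% down). It gives the same calls as the adjusted p for these 7 genes. Only ARG2 of the 7 passed and also reached 1 in the size of its log2 fold change. Among all genes 18.0% met that stricter rule, 10.9% positive and 7.06% negative. Adjusted p-values of the 6 genes that passed ran from 1.5e-77 for ARG2 to 0.0007 for PYCR3 in the authors' deposited table. The median log2 fold change was 0.61 for the 7 genes in the authors' deposited table, 0.03 for all genes and -0.11 for those whose mean count reached 250.

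**Figure D1:**
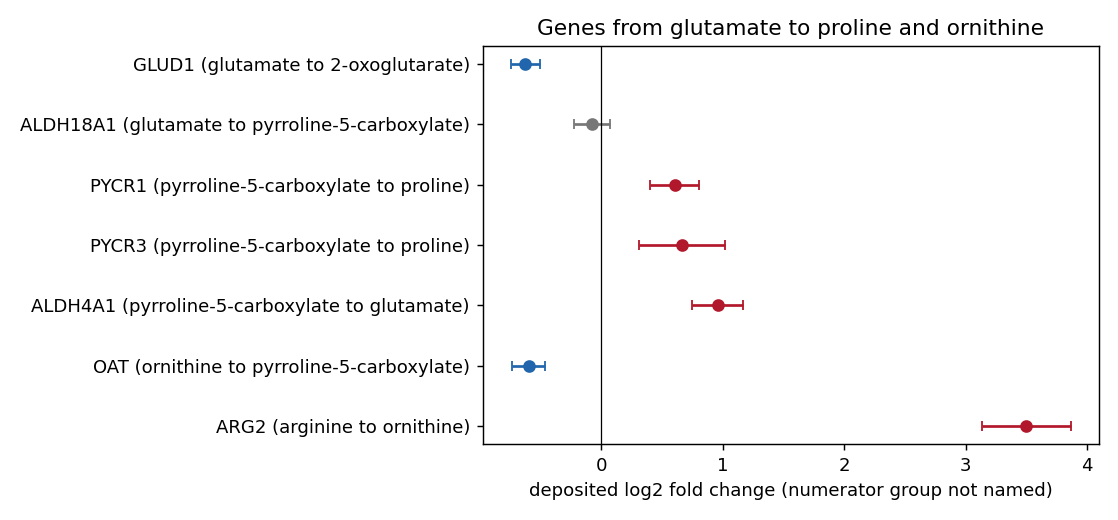
Deposited log2 fold change of each gene (points) with its 95% interval (bars), ordered by step from glutamate at the top to arginine at the bottom; red is positive and blue negative at an adjusted p under 0.05, grey did not pass. ARG2 stands at 3.50, the genes for the enzymes that consume pyrroline-5-carboxylate to proline or glutamate lie between 0.61 and 0.96, and OAT and GLUD1 lie at -0.60 and -0.62.

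The promoters shown here belong to the targeted gene, whose RNA did not pass, and to ARG2, which had the largest difference. Each runs 5′ to 3′ from 250 bases before to 50 bases after the transcript start, from RefSeq on GRCh38.p14. Capitals mark matches to the motifs searched on both strands.
ALDH18A1 promoter, chr10:95656662-95656961, minus strand: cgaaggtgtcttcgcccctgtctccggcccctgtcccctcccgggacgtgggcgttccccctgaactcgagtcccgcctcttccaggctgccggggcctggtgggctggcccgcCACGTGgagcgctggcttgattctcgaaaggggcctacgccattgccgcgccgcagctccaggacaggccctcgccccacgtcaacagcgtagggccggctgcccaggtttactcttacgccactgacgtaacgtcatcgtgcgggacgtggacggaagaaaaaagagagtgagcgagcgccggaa
ARG2 promoter, chr14:67619670-67619969, plus strand: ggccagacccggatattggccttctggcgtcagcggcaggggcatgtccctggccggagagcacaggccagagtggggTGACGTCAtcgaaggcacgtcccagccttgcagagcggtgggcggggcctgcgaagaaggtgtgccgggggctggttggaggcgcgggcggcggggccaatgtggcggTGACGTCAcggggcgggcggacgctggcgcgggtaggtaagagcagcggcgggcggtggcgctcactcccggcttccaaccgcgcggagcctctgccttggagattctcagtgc

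The ALDH18A1 window held 1 CACGTG, the E-box that MYC and its relatives can bind, beginning 136 bases before the start. This motif occurs in 7.26% of the 35116 windows of the same length. The ARG2 window held 2 copies of TGACGTCA, the full cyclic AMP response element, beginning 172 and 64 bases before the start. That motif occurs in 1.85% of windows and was added after the sequence had been seen. Neither TGATGNAAN, a form of the ATF4 and C/EBP composite site found in 3.61% of windows, nor TGACTCA, the AP-1 site found in 4.95%, occurred in the windows of ALDH18A1, ARG2, OAT, GLUD1 or ALDH4A1. For these 5 of the 7 genes a window was on hand. A match describes letters and does not show that a factor binds there.

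At the entry of the route, ALDH18A1 had a mean normalized count of 2661 in the authors' deposited table. It lies on chromosome 10 (95605929 to 95656706, minus strand, GRCh38). Its rebuilt levels were 2592 in the numerator group and 2731 in the denominator group. The log2 fold change was -0.08 (SE 0.074, adjusted p = 0.471 by DESeq2), as the authors' deposited table gives it. Its 95% interval leaves a numerator level between 0.858 and 1.05 times the denominator level. At this SE a difference of 0.17 on the log2 scale in either direction would have been called. The SE matched 0.074, the median SE of the 978 genes within 1.2 times its mean count in the authors' deposited table. None of its 3770 distinct words of 50 bases occurred in transcripts of another gene of GENCODE release 29. The sign depended on the zero point. With the zero point moved so that both groups had equal totals it was -0.19 (adjusted p = 0.0227), and centred on genes whose mean count reached 1000 it was 0.11 (adjusted p = 0.247). It also did not pass when centred on the median of all genes (-0.11) or with equal totals outside the mitochondrial genome (-0.03). RNA of the targeted gene therefore gives no check of which side of the comparison carries the hairpin against it.

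Both reductase genes of the last step were positive. PYCR1 (chromosome 17, 81932384 to 81942412, minus strand), the mitochondrial enzyme that reduces pyrroline-5-carboxylate to proline, had a mean normalized count of 842 in the authors' deposited table, rebuilt as 1016 in the numerator and 667 in the denominator group. That is 1.52-fold (95% interval 1.32 to 1.75). PYCR3, the cytosolic member of the same family, had a mean count of 289 in the authors' deposited table, rebuilt as 355 and 224 in the numerator and denominator groups. Its difference was 1.59-fold (95% interval 1.24 to 2.03). PYCR3 minus PYCR1 was 0.06 on the log2 scale, with an interval from -0.35 to 0.47 if their errors are independent. An interval that wide does not show that they changed equally.

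Relative to the gene of the first step, PYCR1 was higher by 0.68 (SE 0.13) and PYCR3 by 0.74 (SE 0.20) on the log2 scale, with errors taken as independent. Such differences between 2 genes are not moved by any shift of the zero point. The count ratio of PYCR1 to ALDH18A1 was 0.392 in the numerator group and 0.244 in the denominator group. The gene for NADK2, the mitochondrial kinase that supplies the NADPH which P5CS uses, did not pass (0.15, SE 0.19, adjusted p = 0.600, from the authors' deposited table).

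The gene that opposes synthesis was also positive. ALDH4A1 (chromosome 1, 18871430 to 18902781, minus strand) oxidises pyrroline-5-carboxylate to glutamate in the mitochondrion and had a mean normalized count of 683 in the authors' deposited table. Its rebuilt levels were 902 in the numerator and 464 in the denominator group, a 1.95-fold difference (95% interval 1.68 to 2.25). ALDH4A1 minus PYCR1 was 0.35 on the log2 scale (interval 0.06 to 0.65, errors taken as independent). Against PYCR3 it was 0.29, with an interval from -0.12 to 0.70 that spans 0. Genes for making proline from pyrroline-5-carboxylate and for returning it to glutamate therefore lay on the same side. Of the genes whose mean count reached 250, 23.8% had a larger absolute fold change than ALDH4A1 in the authors' deposited table.
PEPD, the prolidase that releases proline from dipeptides, was negative at -0.75 (SE 0.076, adjusted p = 4.6e-22) by the authors' deposited table, with a mean normalized count of 4358. PRODH2, which acts on hydroxyproline, was near the lowest level of the authors' deposited table at a mean count of 2.36 and did not pass (0.85, SE 1.53). PRODH and HOGA1 were not analysed here.

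The ornithine branch split between its 2 enzymes. ARG2 (chromosome 14, 67619798 to 67651720, plus strand), the mitochondrial arginase that makes ornithine and urea from arginine, had a mean normalized count of 351 in the authors' deposited table. Most of that came from the positive side, with rebuilt levels of 646 in the numerator group and 57.1 in the denominator group. The difference was 11.3-fold (95% interval 8.79 to 14.6), or 3.50 on the log2 scale (SE 0.19, adjusted p = 1.5e-77, from the authors' deposited table). Of all genes, many of them with few counts, 1.85% had a larger absolute fold change in the authors' deposited table. OAT (chromosome 10, 124397303 to 124418976, minus strand), which passes the ornithine nitrogen on and yields pyrroline-5-carboxylate, was negative with a mean normalized count of 2368 in the authors' deposited table. Its rebuilt levels were 1884 in the numerator and 2851 in the denominator group, or 0.661-fold (95% interval 0.600 to 0.727).

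ARG2 minus OAT was 4.10 on the log2 scale (SE 0.20, errors taken as independent). GLUD1, at -0.62, lay slightly lower than OAT and was not paired with ARG2. The count ratio of ARG2 to OAT was 0.343 in the numerator group and 0.0200 in the denominator group. Per kb of exon, ARG2 and OAT stood at 267 and 556 in the numerator group, and at 23.6 and 842 in the denominator group, so OAT was the higher in both. The liver-type arginase gene ARG1 did not pass (0.15, SE 0.50, adjusted p = 0.862) at a mean normalized count of 25.0, from the authors' deposited table.

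GLUD1 (chromosome 10, 87050486 to 87094866, minus strand), the mitochondrial dehydrogenase that turns glutamate into 2-oxoglutarate, had the highest count of the 7. Its mean normalized count was 4407 in the authors' deposited table, rebuilt as 3468 in the numerator and 5346 in the denominator group. It was negative, at 0.649-fold (95% interval 0.596 to 0.706). GLUD1 and OAT, which each exchange glutamate with 2-oxoglutarate in the mitochondrion, were both negative. That side was not shared by all mitochondrial enzymes of this exchange. In the authors' deposited table GPT2 was positive at 1.13 (SE 0.12) and GOT2 at 0.22 (SE 0.066). OAT minus GLUD1 was 0.03 on the log2 scale, with an interval from -0.16 to 0.21 if errors are independent.

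**Figure D2:**
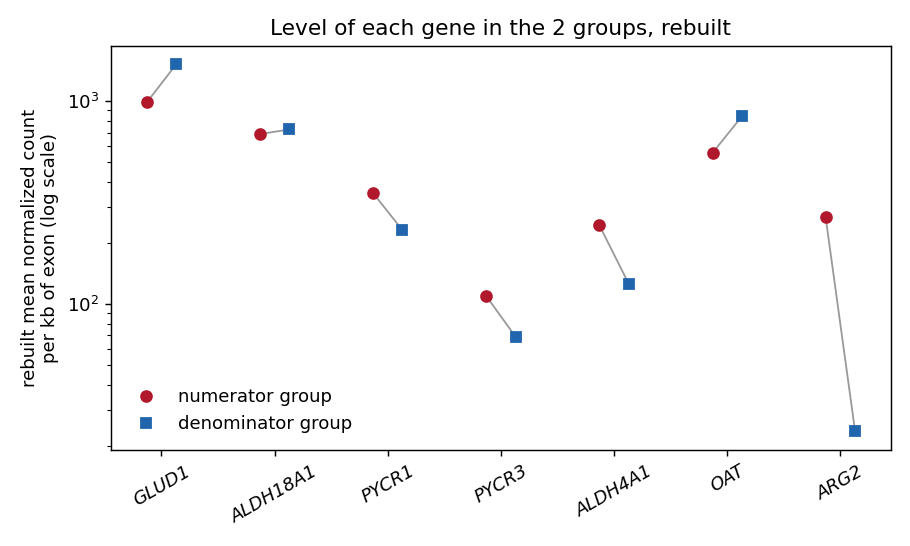
Rebuilt mean normalized count per kb of exon for each gene (log axis), numerator group as red circles and denominator group as blue squares, in pathway order. ARG2 stands at 267 in the numerator group and 23.6 in the denominator group, while ALDH18A1 is at 688 and 725 in the same order; points have no error bars because no values per library were analysed.

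Levels of different genes were compared per length. Counts per kb of exon in GENCODE release 29, averaged over both groups, were 1252 for GLUD1, 707 for ALDH18A1, 699 for OAT, 292 for PYCR1, 185 for ALDH4A1, 145 for ARG2 and 89.2 for PYCR3. From GLUD1 to PYCR3 this is a range of 14.0-fold. GLUD1 led and PYCR1 and ALDH4A1 kept their places with each of the 3 lengths tried, while other neighbours did not. The spread of these levels between libraries was not analysed here, so no difference between neighbours can be tested. ALDH18A1 and OAT changed places when the longest transcript was used (792 and 1156 per kb), and ARG2 and PYCR3 changed places per kb of coding sequence (331 and 337). Within the rebuilt groups, ARG2 moved most in this order. It was the fifth in the numerator group, at 267 per kb, and the lowest in the denominator group, at 23.6 per kb. Between the highest and the lowest gene lay a ratio of 64.3 in the denominator group.

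Several of these genes share sequence or exons with others, and the sources used here do not say whether counting used strand. Exons of VTI1B, on the opposite strand, overlap 37.4% of the ARG2 exon bases. VTI1B, a vesicle SNARE gene, lay in the authors' deposited table at -0.99 (SE 0.12, mean normalized count 609), the side opposite to ARG2. ALDH4A1 shares 41.1% of its exon bases with AL080251.1, an overlapping coding gene on the same strand, and PYCR1 shares 14.1% with MYADML2 on the same strand and 15.6% with an antisense RNA. AL080251.1, MYADML2 and this antisense RNA were not analysed here. SHLD2, opposite to GLUD1, overlaps 13.2% of its exon bases. In the authors' deposited table SHLD2 was negative at -1.27 (SE 0.091), as GLUD1 was. The part of these overlaps in the values was not tested.

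GLUD1 has a near copy, GLUD2, an intronless gene on the X chromosome that arose from GLUD1 RNA. The middle of the coding sequence, bases 808 to 867 counted from the start codon, shows how little separates reads of the pair. The base that differs is in capitals.
GLUD1, chromosome 10: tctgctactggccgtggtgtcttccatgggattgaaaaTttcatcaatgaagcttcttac
GLUD2, chromosome X: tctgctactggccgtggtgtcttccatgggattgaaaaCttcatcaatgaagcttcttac
These 60 bases differ at 1 position, and over the 1674 coding bases 1634 (97.6%) are identical. Of the distinct 50-base words in GLUD1 transcripts, 22.2% also occur in GLUD2. In the authors' deposited table GLUD2 was negative at -0.51 (SE 0.17, adjusted p = 0.0076), with a mean normalized count of 228. GLUD2 minus GLUD1 was 0.12 on the log2 scale (interval -0.24 to 0.47, errors taken as independent). Counts of the 2 genes may trade reads, so the GLUD2 value is uncertain. The pseudogene GLUD1P3, with 1.41% of the GLUD1 words, was positive in the authors' deposited table at 1.75 (SE 0.24, mean normalized count 122), and GLUD1P2 did not pass (0.26, SE 0.58). For OAT 3.04% of the words, and for PYCR3 0.990%, occur in transcripts of other genes.

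**Figure D3:**
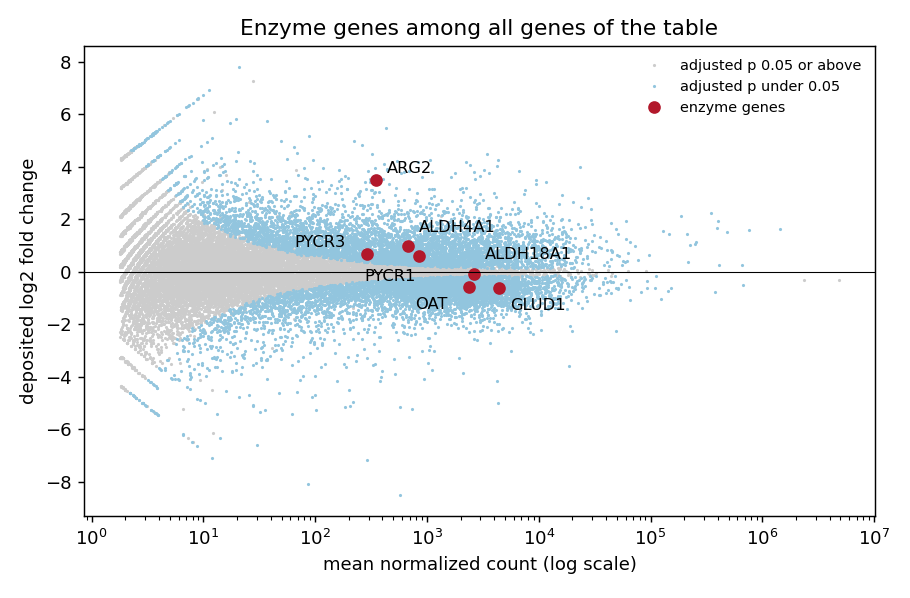
Deposited log2 fold change against mean normalized count (log axis) for 25287 genes, with the 7 enzyme genes as large red points. ARG2 at 3.50 stands toward the upper edge of genes of its mean count, the other 5 that passed lie within the body of called genes, and ALDH18A1 at -0.08 lies by the zero line.

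Other genes of the route were described from 5 lists of 44 genes, of which 36 were in the table. Without the 7 enzymes above, the authors' deposited table has 11 of 29 positive and 7 negative at an adjusted p under 0.05. Their median log2 fold change was 0.19. Among all genes 20.9% were positive and 21.5% negative, and among genes whose mean count reached 250 the shares were 34.1% and 43.5%. Mean counts of the list genes run from 2.36 to 43954, so neither background matches them in level. The pooled lists were not tested as a set, and no likeness to or difference from all genes is read from these counts. By the up and down calls in the authors' deposited table the same genes hold 12 positive and 7 negative.

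In the glutamate and glutamine list, the authors' deposited table has 5 of 12 genes as positive and 5 as negative, and their median was 0.04. The shares over all genes were 20.9% and 21.5%, and nothing particular to the list is read from its counts. PSAT1, which uses glutamate in serine synthesis, had 1.51 (SE 0.079), and GPT2, the mitochondrial alanine aminotransferase, had 1.13 (SE 0.12), by the authors' deposited table. GOT1, the cytosolic aspartate aminotransferase, had 0.52 (SE 0.082) by the authors' deposited table. Genes outside the 6 with the smallest adjusted p are named after their values were seen. Of these, GLUL, the glutamine synthetase, was negative at -0.60 (SE 0.097), and GOT2, the mitochondrial partner of GOT1, positive at 0.22 (SE 0.066) by the authors' deposited table. GPT (0.32, adjusted p = 0.878) and SLC25A12 (-0.14, adjusted p = 0.258) did not reach an adjusted p under 0.05 in the authors' deposited table.
Mitochondrial glutamate carriers did not move as one. By the authors' deposited table SLC25A22 was positive at 1.58 (SE 0.10, mean normalized count 1078) and its relative SLC25A18 negative at -1.83 (SE 0.26, mean normalized count 119). SLC25A13, which exchanges aspartate for glutamate, was negative by the authors' deposited table at -1.61 (SE 0.067), while its relative SLC25A12 did not pass. ASNS was not analysed here.

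By the authors' deposited table the ornithine, urea cycle and arginine list held 2 positive and 3 negative genes among 9, and its median was -0.19. ARG2 is among the positive genes and OAT among the negative ones, both already described above. Among all genes 20.9% were positive and 21.5% negative, and 34.1% and 43.5% of those whose mean count reached 250. Nothing particular to the list is read from its counts. NAGS and CPS1, which open the urea cycle, had mean normalized counts of 54.0 and 82.7 in the authors' deposited table. By the authors' deposited table NAGS was positive at 1.02 (SE 0.34, adjusted p = 0.0070) and CPS1 negative at -0.90 (SE 0.30, adjusted p = 0.0066). SLC25A15, the mitochondrial ornithine carrier, was negative at -0.30 (SE 0.12, adjusted p = 0.027) by the authors' deposited table. ASL (-0.19, SE 0.11), ASS1 (-0.25, SE 0.32) and GATM (0.19, SE 0.33) did not pass in the authors' deposited table. Apart from ARG2, no gene of this list among the 9 exceeded the value of NAGS in size.

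Carriers for proline, glutamine and their exchange partners held 5 positive and 0 negative genes among 8 at an adjusted p under 0.05 by the authors' deposited table, and their median was 0.82. The shares over all genes were 20.9% positive and 21.5% negative, and 34.1% and 43.5% over those whose mean count reached 250. The list was chosen with results known and was not tested as a set, so nothing particular to it is read from its counts. SLC1A5, a glutamine carrier of the plasma membrane, had 2.20 (SE 0.067, adjusted p = 1.4e-231) by the authors' deposited table, and its mean normalized count was 6191. SLC7A5 and SLC3A2, which form a heterodimer that exchanges glutamine for large neutral amino acids, had 1.18 (SE 0.061) and 0.79 (SE 0.060) by the authors' deposited table. SLC38A2, which takes up proline as well as glutamine and alanine, had 0.84 (SE 0.050), and SLC36A4 had 0.81 (SE 0.082), by the authors' deposited table. SLC1A3, a glutamate carrier, stood at 1.18 (SE 0.56) in the authors' deposited table, where it is called up at an unadjusted p of 0.0355 but has an adjusted p of 0.0788. SLC36A1 (-0.03, SE 0.082) and SLC6A20 (-0.02, SE 0.96), both named after their values were seen, are called stable in the authors' deposited table. SLC1A4 was not analysed here.

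**Figure D4:**
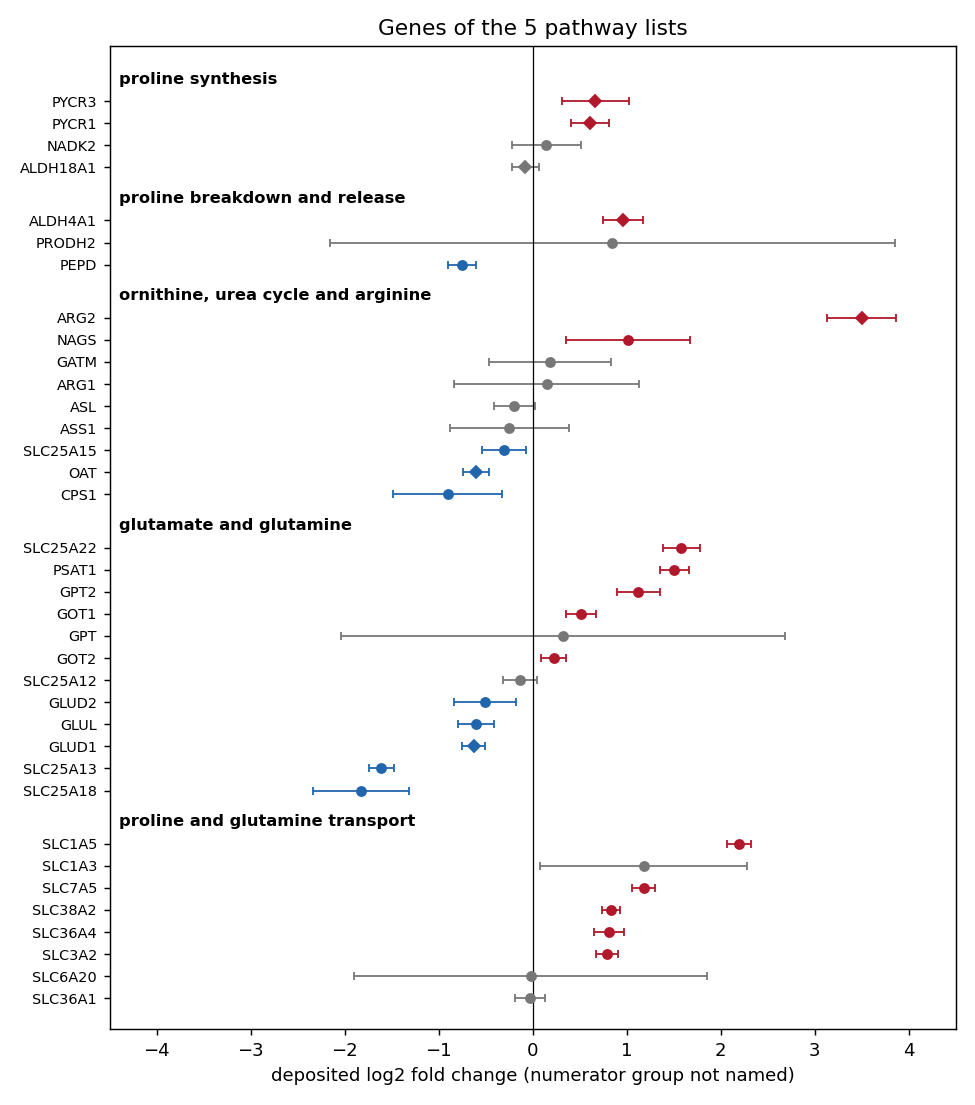
Deposited log2 fold change with 95% interval of the 36 genes of the 5 lists, sorted within each list; diamonds are the 7 enzyme genes, circles the others, red positive and blue negative at an adjusted p under 0.05, grey not past it. Values run from ARG2 at 3.50 to SLC25A18 at -1.83, and wide bars belong to genes of low count such as PRODH2 and GPT.

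Markers were set beside the label of the line. Of 5 epithelial markers, KRT8 and KRT18 had mean normalized counts of 18965 and 14244 in the authors' deposited table, while EPCAM, CDH1 and KRT19 were low at 41.4, 24.2 and 5.77. The 3 mesenchymal markers VIM, CDH2 and ZEB1 had 24591, 3947 and 1097 in the authors' deposited table. Of 6 lung adenocarcinoma markers, SFTPB had a mean count of 4.49 in the authors' deposited table, and the other 5 were not analysed here. Summed over each marker list, rebuilt levels in the numerator and denominator groups were 44.7 and 23.4 for 2 of 4 blood markers, 357 and 215 for 4 fibroblast markers, and 299 and 146 for 3 endothelial markers. Of these 9 genes, CD14, DCN, PDGFRB and PECAM1 were positive at 1.12 to 2.54 in the authors' deposited table. The other 5, PTPRC, COL1A1, LUM, CDH5 and VWF, lay between -0.83 and -0.11 and did not pass. PECAM1 alone had rebuilt levels of 198 in the numerator and 34.2 in the denominator group, and so carried the endothelial difference. The part of these markers in the enzyme gene values was not tested.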

How the data were processed

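The tools named for the 6 libraries are fastp 0.23.2, STAR 2.7.10a, featureCounts and DESeq2, with hg38 as the build, per the submitters' processing notes. The authors deposited 1 table: a mean normalized count (a signal scaled by DESeq2 size factors), a log2 fold change with SE, a Wald score, a p-value with its adjusted p-value, and a call of up, down or stable. The calls match an unadjusted p under 0.05 in every row. Here a gene passed at an adjusted p under 0.05. The Wald score equals fold change over SE within 2.24e-13, and the adjusted p a Benjamini-Hochberg adjustment over all 25287 genes within 1.39e-15. Per-library values were not analysed here, so the planned count test could not be run, the depth is unknown, and the authors' comparison is described with no new test per gene.

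Members and lists were chosen with earlier results of these data known. Named are the 7 enzyme genes, their paralogs, pseudogenes and overlapping genes, and up to 6 further genes per list by adjusted p; genes beyond these are said to be named after their values were seen. Of the 44 list genes, 36 were in the table; some planned list genes are not reported here. Rebuilt group levels assume equal group sizes. Differences between genes use the root of the summed squared SEs. Shifted fold changes had p recomputed from the normal distribution and adjusted over all genes. The calculation was checked on simulated data in which few genes changed, equally in both directions. In the real comparison 42.4% of all genes passed, so that check does not tell which zero point is right here. Lengths, overlaps and 50-base words come from GENCODE release 29 (GRCh38), promoters from RefSeq, with Python 3.11.15, pandas 2.3.3 and scipy 1.17.1.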

Additional observations from a re-analysis of the deposited data

How the results depend on the processing

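The 6 enzyme genes that passed kept their sign and passed under all 4 shifts of the zero point, which were 0.03 (median of all genes), -0.19 (median of genes whose mean count reached 1000), 0.12 (equal total counts) and -0.05 (equal totals outside the mitochondrial genome) on the log2 scale. ALDH18A1 was 0.11 with the second and -0.19, past the threshold, with the third. With the first it was -0.11 and with the fourth -0.03, and it passed with neither. The cause was not tested. When the log2 fold change also had to reach 1 in size, the enzyme genes counted 1 positive and 0 negative, and the other list genes 6 positive and 2 negative. Among all genes 10.9% were positive and 7.06% negative by that rule, and the lists were not tested against these shares. The other thresholds and shifts kept each count within 1.5 times its value. Per kb of the longest transcript, levels were 792 for ALDH18A1, 442 for PYCR1, 108 for PYCR3, 203 for ALDH4A1, 1156 for OAT, 172 for ARG2 and 1450 for GLUD1. Per kb of coding length they were 1116 for ALDH18A1, 811 for PYCR1, 337 for PYCR3, 404 for ALDH4A1, 1798 for OAT, 331 for ARG2 and 2633 for GLUD1, since each length is shorter. No paired analysis was possible because per-library values were not analysed here; for the same reason leaving out a replicate and a second count test were not run.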
